A study of Caenorhabditis elegans with 4 samples.

Results

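The cuticle collagen genes of Caenorhabditis elegans were followed through 4 RNA-seq libraries of whole young adult worms. They were taken as each entry of the authors' tables with a gene name that begins with col-, or that is a cuticle collagen gene named dpy-, rol-, sqt- or bli-. The rule found 34 genes (31 named col-, and dpy-4, rol-1 and bli-6) among the 302 gene names in the tables, and 179 such genes are annotated in RefSeq (assembly WBcel235). The tables hold the genes that the authors called different and give no value for any other, so the remaining 145 annotated cuticle collagen genes have no level here, among them dpy-7, rol-6, sqt-3 and the adult collagen gene col-19.

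The libraries come from N2, the standard wild-type strain, and VZ1, which is known to carry a trx-1 deletion. TRX-1 is a thioredoxin, a small redox protein, found in the ASJ sensory neurons. Animals of both strains were grown on the bacterial food OP50. They were then either left on it (unstressed) or held for 5 h in 10 mM NaAs (sodium arsenite, which causes oxidative stress), the stressed groups. Each of the 4 groups has 1 library of total RNA from a population of whole animals, so no difference has a replicate check and no p-value was computed. The labels do not say how many animals, or which generations or clones, a population stands for, and trx-1 has no value in the tables that could check the strain. Library depth is unknown, and counting error cannot be given. In RNA of whole animals, fewer cells of a type and less RNA per cell cannot be told apart.

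The worm's cuticle is a layered coat that the epidermis makes anew at each molt, and most of it is collagen. Cuticle collagens are short proteins with repeats of glycine and 2 other residues, which wind into triple helices and are then trimmed and cross-linked. They belong to a large gene family, and members are switched on at particular stages and at particular points of the molting cycle. Mutations in some of them change body shape, which gave the names dpy (dumpy), rol (roller), sqt (squat) and bli (blister). The series' title names SKN-1, the worm's Nrf-family stress transcription factor, which is known to be needed for collagen gene expression in some long-lived mutants.

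Most of the listed collagen genes stood lower in VZ1 than in N2, with and without arsenite. Without stress 24 were listed and all were lower in VZ1, which is 13.4% of the 179 annotated, where 0.437% of the 14419 genes tested were listed and 0.416% were listed as lower. Under stress 25 were lower and 1, col-3, was higher. The listed genes are 14.5% of those annotated, where 0.508% of 14358 genes tested were listed, 0.488% as lower and 0.0209% as higher. The 179 annotated genes include 3 pseudogenes, and how many of the 179 were tested is unknown. Shares of annotated genes, here and below, thus have another kind of denominator than shares of genes tested. Collagen genes make up 38.1% of all genes in the unstressed strain table and 35.6% of the entries in the stressed one. VZ1 to N2 ratios were ranked among entries above 0 FPKM in both strains, 61 of 63 without stress and 66 of 73 with stress. Of the 10 lowest, 7 without stress and 8 with stress belonged to collagen genes. The entries left out, none of them a collagen gene, were at 0 FPKM in VZ1 and would stand below every ranked one.

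The listed collagen genes fall into 3 classes by table. Both strain tables list 16, the unstressed table alone lists 8 and the stressed table alone lists 10. The value compared throughout is FPKM, fragments scaled to exon length and to the fragments mapped, so levels may be set side by side between genes. Ratios are log2 of VZ1 over N2, or of stressed over unstressed, with no pseudocount, and no collagen gene was listed at 0 in any library.

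The 16 genes in both strain tables have a level in each library. In unstressed N2 the lowest was 25.5, the median 461 and the highest 1735 FPKM. In unstressed VZ1 the lowest was 2.97, the median 22.2 and the highest 367 FPKM. In stressed N2 these values were 0.704, 229 and 1055 FPKM, and in stressed VZ1 0.893, 10.3 and 146 FPKM. The VZ1 level was thus below that of N2 for each of the 16 without stress, and for each but col-3 with stress, although the ranges over genes overlap.

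**Figure D1:**
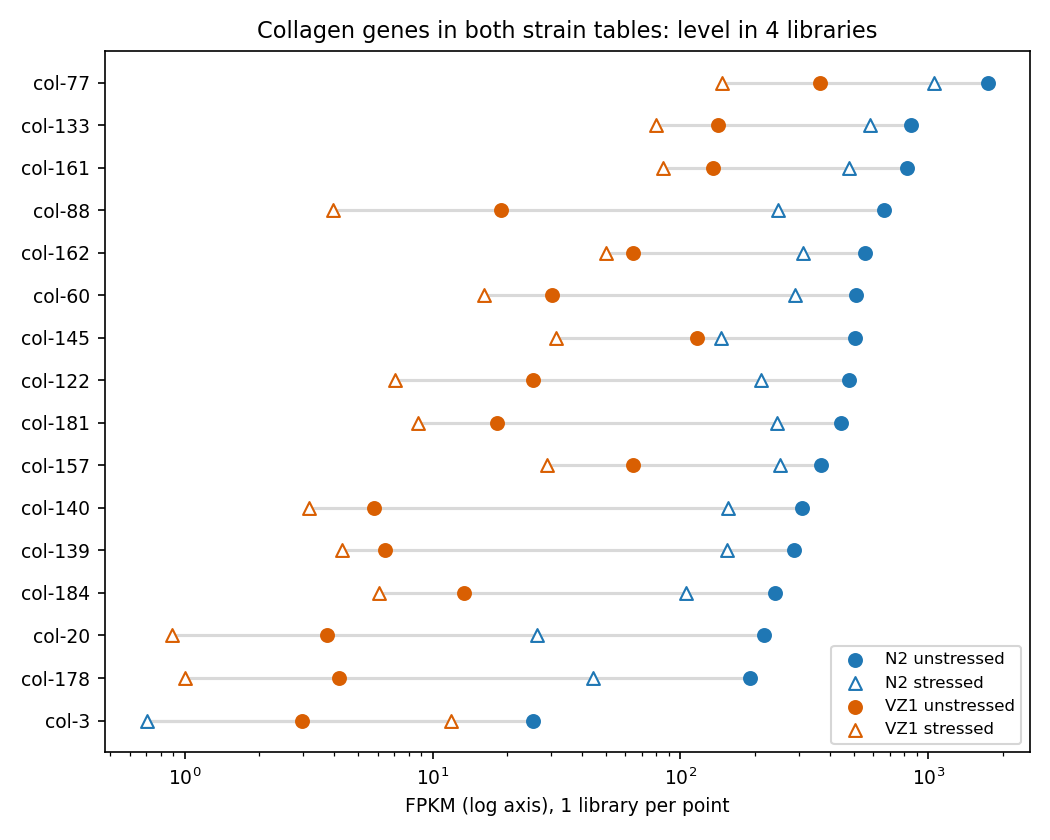
FPKM (log axis) of the 16 collagen genes in both strain tables, with genes on the vertical axis, ordered by level in unstressed N2, and 1 point per library. For each gene but col-3 both N2 points lie to the right of both VZ1 points, and each open stressed point lies to the left of the filled unstressed point of its strain.

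Among these 16, the strain ratio split into a deep and a shallow set. This split was made after the values were seen and is a description. In 9 genes the log2 ratio lay between −5.85 and −4.06 without stress and between −5.97 and −4.11 with stress. In 6 others it lay between −3.11 and −2.12, and between −3.12 and −2.21. The same genes thus made up each set in both conditions, and no value of the 16 fell between the sets. Collagen genes listed in only 1 strain table did fall there. They were col-129 (log2 −3.70) and col-150 (−3.25) without stress and rol-1 (−3.18) with stress. The gap thus does not hold over all listed collagen genes. With a pseudocount of 1 FPKM the stressed ratio of col-20 was −3.85 in place of −4.88 and that of col-178 −4.50 in place of −5.46, and the sets stayed apart. The 9 deep genes had 192 to 660.0 FPKM in unstressed N2 and 3.75 to 30.4 FPKM in unstressed VZ1, and the 6 shallow genes 369 to 1735 and 64.1 to 367 FPKM. The sets overlapped in N2 and not in VZ1, which a split by this ratio favours.

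In the deep set, col-20 (chromosome II, 4869763 to 4870758 in the tables' build, ce10) stood at 217 FPKM in unstressed N2, 3.75 in unstressed VZ1, 26.3 in stressed N2 and 0.893 in stressed VZ1. The gene col-140 (chromosome V, 5835876 to 5836794) stood at 308, 5.79, 155 and 3.18 FPKM in the same order. The strain ratio of col-140 was log2 −5.74 without and −5.61 with stress, and that of col-20 was −5.85 and −4.88.

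The neighbour of col-140 in this list on chromosome V, col-139 (4652895 to 4653944), stood at 287 and 6.45 FPKM in unstressed N2 and VZ1, and at 154 and 4.33 FPKM under stress. It lies 1182 kb from col-140, with 279 protein-coding genes between them and no annotated collagen gene among these. The levels of col-139 and col-140 were close to each other in each library, and both were far lower in VZ1.

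On the X chromosome 3 genes belong to the deep set. The gene col-178 (11199402 to 11200303) stood at 192, 4.18, 44.3 and 1.005 FPKM in unstressed N2, unstressed VZ1, stressed N2 and stressed VZ1. The gene col-181 (12104852 to 12105908) stood at 446, 18.1, 245 and 8.77 FPKM. The gene col-184 (13469377 to 13470299) stood at 241, 13.4, 105 and 6.10 FPKM. Their strain ratios differed little between the conditions, with log2 −5.52 and −5.46 for col-178, −4.62 and −4.81 for col-181 and −4.17 and −4.11 for col-184.

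The gene col-88 (chromosome III, 41061 to 41970), a single-exon gene near the chromosome end, had the highest level of the deep set in unstressed N2 and, under stress, the lowest ratio of all genes with a value above 0 in both strains. It stood at 660.0 and 18.8 FPKM in unstressed N2 and VZ1 and at 248 and 3.95 FPKM under stress, a ratio of log2 −5.13 and −5.97. The gene col-122 (chromosome IV, 9560847 to 9566582) likewise had a lower ratio under stress, with 476 and 25.5 FPKM unstressed and 212 and 7.07 FPKM stressed. Its locus in the tables, 5.74 kb wide, is 5.40 times as long as the annotated gene, so other transcripts may share its value. The gene col-60 (chromosome I, 7105317 to 7106724) stood at 509 and 30.4 FPKM unstressed and 289 and 16.1 FPKM stressed, 16.7-fold and 17.9-fold lower in VZ1.

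The shallow set holds the most abundant genes. The gene col-77 (chromosome II, 8358232 to 8359277) had the highest level of the 16 in each library, with 1735, 367, 1055 and 146 FPKM in unstressed N2, unstressed VZ1, stressed N2 and stressed VZ1. The gene col-133 (chromosome IV, 14098335 to 14099320) stood at 850.2, 142, 583 and 79.7 FPKM. The gene col-161 (chromosome V, 13317056 to 13317979) stood at 823, 135, 481 and 84.7 FPKM. These were the 3 highest of the 16 in unstressed N2, and also in unstressed VZ1.

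The other 3 shallow genes lie on chromosome V. The gene col-162 (13441947 to 13443352), 124 kb from col-161, stood at 555, 64.1, 312 and 50.01 FPKM in the same order. The gene col-157 (11484030 to 11484975) stood at 369, 64.5, 252 and 29.0 FPKM. The gene col-145 (9162024 to 9162963) stood at 507, 117, 145 and 31.5 FPKM. The level of col-145 was lower with stress by 3.49-fold in N2 and 3.71-fold in VZ1, while its strain ratio was log2 −2.12 and −2.21.

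Over the 16 genes the log2 strain ratio had a median of −4.12 without stress and −4.14 with stress. Across genes the ratios of the conditions had r = 0.62 and Spearman's rho = 0.83 (n = 16 genes), and r = 0.94 and rho = 0.86 without col-3. These are descriptions over genes that share their libraries and were listed in both tables. The 15 other genes that both strain tables list once had medians of −3.04 and −3.14. The medians over every gene with a ratio were −3.04 in the unstressed table and −2.75 in the stressed one, beside −3.88 and −2.86 for all collagen genes listed there.

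**Figure D2:**
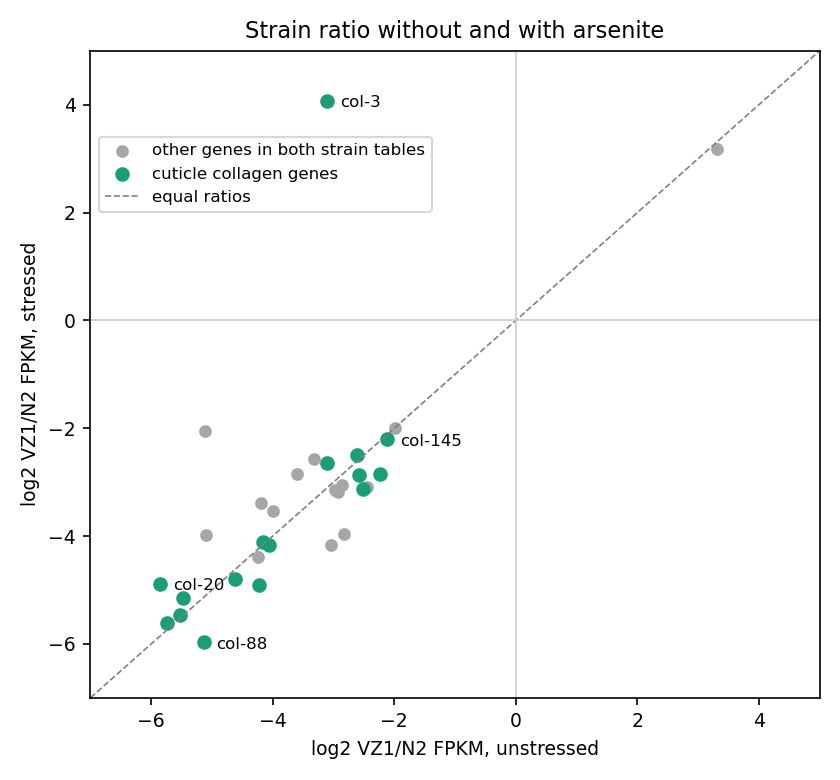
Log2 ratio of VZ1 to N2 FPKM without stress (horizontal) and with stress (vertical), 1 point per gene, with the 16 collagen genes in green, the 15 other genes listed in both strain tables in grey and a dashed line at equal ratios. All collagen points but col-3 lie in the lower left, between −5.85 and −2.12 on the horizontal axis, and col-3 lies alone in the upper left at −3.10 and 4.07.

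The gene col-3 (chromosome IV, 8824795 to 8825954) differed from the other 15 in direction under stress. It stood at 25.5 FPKM in unstressed N2, 2.97 in unstressed VZ1, 0.704 in stressed N2 and 11.8 in stressed VZ1. It was therefore 8.59-fold lower in VZ1 without stress and 16.8-fold higher with stress, or 6.67-fold and 7.52-fold with a pseudocount of 1 FPKM, since its level in stressed N2 was under 1 FPKM. These differences had a q of 0.0141 and 0.0228 in the authors' deposited table. Its level was the lowest of the 16 in unstressed N2, unstressed VZ1 and stressed N2, while in stressed VZ1 it was above each gene of the deep set except col-60 at 16.1 FPKM. Whether the strain ratio differs between the conditions was not tested, as each condition has 1 library of each strain.

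Few collagen genes were listed between stressed and unstressed animals. In N2 4 were listed and all fell, which is 2.23% of the 179 annotated, where 1.05% of 14397 genes tested were listed and 0.25% were listed as lower. The gene col-20 fell from 221 to 26.01 FPKM and col-137 (chromosome IV, 16601457 to 16604511) from 60.2 to 7.46 FPKM, 8.51-fold and 8.08-fold. The gene col-3 fell from 26.02 to 0.700 FPKM and col-178 from 196 to 43.8 FPKM, 37.2-fold and 4.47-fold, although the value for col-3 was 15.9-fold with a pseudocount of 1 FPKM. In the authors' deposited table their q was 0.00735 for col-20 and col-137, 0.0198 for col-3 and 0.0411 for col-178. The median log2 fold of these 4 was −3.05, beside −2.69 for the other genes that fell and had a value above 0.

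No collagen gene was listed for stress in VZ1, where 0.735% of 14420 genes tested were listed and 0.125% as lower. The smallest fall listed in that table was log2 −2.63, and in N2 it was −2.003. The 16 genes of both strain tables give a level with and without stress in each strain, from tables that the authors normalised separately. In N2 all 16 stood lower with stress, with a median log2 fold of −0.94 and a range of −5.18 to −0.54. In VZ1 15 stood lower and col-3 stood higher, with a median of −1.09 and a range of −2.25 to 1.99. None of these VZ1 values reached the smallest listed fall.

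Single genes differed in how far they stood below their unstressed level. The gene col-20 had a log2 stress fold of −3.04 in N2 and −2.07 in VZ1, col-178 of −2.11 and −2.06, col-145 of −1.80 and −1.89 and col-88 of −1.41 and −2.25. The values were nearest to 0 in N2 for col-133, at −0.54, and in VZ1 for col-162, at −0.36. The VZ1 log2 stress fold less the N2 one had a median of −0.02, with quartiles of −0.37 and 0.17, and was under 1 in size for 15 of the 16 genes. It was 0.97 for col-20, −0.84 for col-88 and 7.17 for col-3. With a pseudocount of 1 FPKM it was 1.67 for col-20 and 5.65 for col-3, and under 1 in size for 14 genes. The folds of the strains share no library. Their difference equals the stressed log2 strain ratio less the unstressed one. It therefore restates the strain ratios of genes listed in both tables and is no separate result. None of these differences was tested. For the 15 other genes in both strain tables the median stress fold was −0.37 in N2 and −0.18 in VZ1, with 14 and 9 of them lower.

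**Figure D3:**
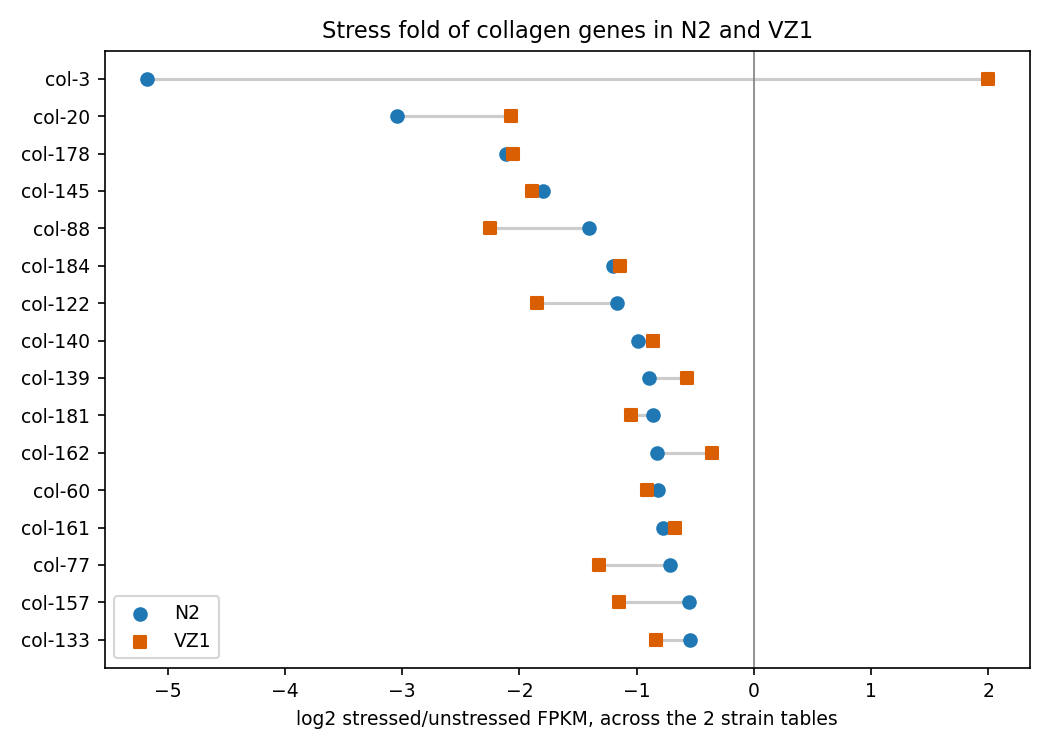
Log2 of stressed over unstressed FPKM for the 16 collagen genes, with genes on the vertical axis, N2 as circles and VZ1 as squares, 1 library of each kind and strain. All points but that of col-3 in VZ1, at 1.99, lie left of 0, and the points of a gene lie within 1 of each other except for col-3.

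A group of 8 genes was listed between the strains without stress only. The gene col-137 stood at 59.9 FPKM in N2 and 0.710 in VZ1 (log2 −6.40), and col-81 (chromosome II, 11012416 to 11013683) at 258 and 4.22 FPKM (log2 −5.93). These were the lowest ratios of the 24, but with a pseudocount of 1 FPKM col-137 was at log2 −5.15 and ranked 6, behind col-81 at −5.63, col-20, col-140, col-139 and col-178. The locus of col-137 is 2.34 times as long as the annotated gene. Below 20 FPKM in N2 was col-179 (chromosome X, 11201465 to 11202369), with 17.5 and 0.910 FPKM (log2 −4.26). The gene col-150 (chromosome V, 10293604 to 10294577) stood at 34.4 and 3.60 FPKM.

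The remaining 4 of these 8 had higher VZ1 levels. The locus of col-129 (chromosome IV, 12108717 to 12111649), which the table shares between col-129 and the dynein light chain gene dlc-2, stood at 357 and 27.5 FPKM. The genes col-91 (247 and 47.6 FPKM), col-12 (154 and 34.5 FPKM) and col-58 (66.0 and 15.2 FPKM) had log2 ratios of −2.37, −2.16 and −2.12. The locus of col-91 is 7.47 kb wide, 5.70 times the annotated gene. Levels under stress are not in the strain table for any of the 8. For col-137 the N2 stress table gives one, 7.46 FPKM.

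The 10 genes listed under stress only were the abundant ones. In stressed N2 they ran from 688 to 2273 FPKM with a median of 1416, and in stressed VZ1 from 84.8 to 527 FPKM with a median of 255. Of the 16 genes in both tables, only col-77 at 1055 FPKM lay within that N2 range. Their log2 ratios ran from −3.18 to −1.67 with a median of −2.35, all shallower than those of the deep set. Their levels without stress are not in the tables, so a difference of their strain ratio between the conditions cannot be stated.

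**Figure D4:**
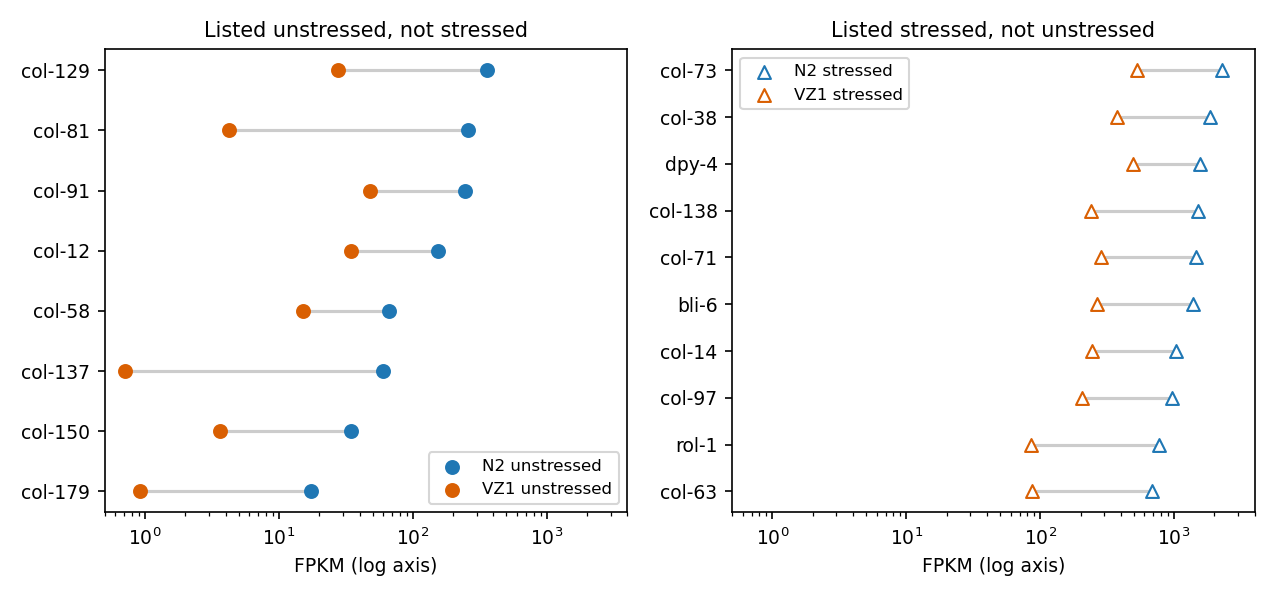
FPKM (log axis) in N2 and VZ1 of the 8 collagen genes listed without stress only (left, filled circles) and the 10 listed under stress only (right, open triangles), 1 library per point. On the left N2 runs from 17.5 to 357 FPKM and on the right from 688 to 2273 FPKM, and each VZ1 point lies left of its N2 point.

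This group holds the 3 members named for a mutant shape. The gene dpy-4, whose loss makes animals short and thick, stood at 1564 FPKM in stressed N2 and 491 in stressed VZ1, 3.18-fold lower. Its log2 ratio of −1.67 was the smallest difference in the stressed table, with a q of 0.0416 in the authors' deposited table. Its locus (chromosome IV, 14981588 to 14996263) is 14.7 kb wide, 11.8 times the annotated gene. The gene rol-1, whose mutants roll around their long axis, stood at 768 and 84.8 FPKM (chromosome II, 12172514 to 12175921), the lowest ratio of the 10 at log2 −3.18. The gene bli-6, whose mutants form fluid-filled blisters in the cuticle, stood at 1374 and 266 FPKM (chromosome IV, 6376983 to 6378100, log2 −2.37).

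Among the col- genes of this group, col-73 had the highest level of any collagen gene in the tables, 2273 FPKM in N2 and 527 in VZ1. It was followed by col-38 at 1857 and 371 FPKM, col-138 at 1497 and 238 FPKM and the locus of col-71 and Y49F6B.9 at 1459 and 282 FPKM. The genes col-14 and col-97 stood at 1032 and 243 FPKM and at 971 and 207 FPKM, and col-63 at 688 and 86.8 FPKM. The loci of col-138, col-14 and col-71 are 17.04, 9.11 and 4.37 times as long as the annotated genes, so their values may include other transcripts.

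The correlation of level and ratio differed between the strain tables, which hold different genes. Over the 24 genes listed as lower without stress, the log2 N2 level and the log2 ratio had r = 0.14 and rho = 0.22. Over the 25 listed as lower with stress the values were r = 0.75 and rho = 0.72, with the abundant genes having the ratios nearest to 0. The N2 level enters both measures, and the tables hold only called genes, so these are descriptions. As 8 genes are in the unstressed table alone and 10 in the stressed one alone, the values give no difference between the conditions. Among the genes of both tables without col-3, the median level in unstressed N2 was 308 FPKM in the deep set and 689 FPKM in the shallow set. Within these genes the set with ratios nearer to 0 was thus the more abundant one without stress. The sets were split by that ratio, and over all 24 genes the trend was weak (r = 0.14). Above 100 FPKM in N2 were 19 of the 24 and 23 of the 26 collagen genes, and above it in VZ1 4 and 9.

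**Figure D5:**
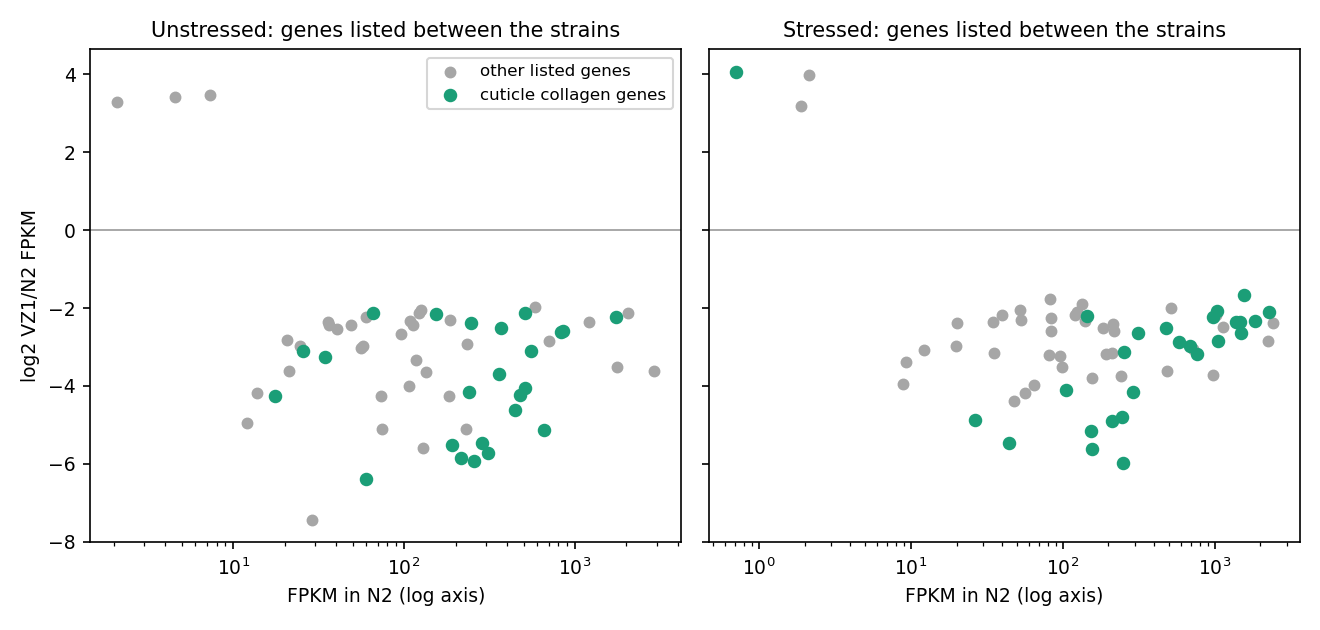
Log2 ratio of VZ1 to N2 against the N2 FPKM (log axis) for each gene with a ratio in the unstressed (left) and stressed (right) strain table, collagen genes in green and other genes in grey. The green points at the right end of the stressed panel, up to 2273 FPKM, lie near −2, and the single green point above 0 is col-3 at 4.07.

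By position, the 34 genes lie on all 6 chromosomes. Of the annotated collagen genes 3 of 24 on chromosome I were listed, 7 of 33 on II, 3 of 13 on III, 9 of 46 on IV, 8 of 32 on V and 4 of 31 on X. These shares run from 12.5% on I to 25% on V. All 10 genes listed under stress only lie on I to IV, and 6 of the 16 in both tables lie on V. Most annotated collagen genes also lie on I to IV, and the counts are small, so no pattern by chromosome is drawn from them. Most neighbours among the listed genes are far apart, and the exceptions are a pair on II and a pair on X.

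On chromosome II col-20 and col-73 lie 1.45 kb apart with no annotated protein-coding gene between them. In stressed N2 col-20 stood at 26.3 FPKM and col-73 at 2273 FPKM, and their log2 strain ratios were −4.88 and −2.11. On X col-178 and col-179 lie 1.16 kb apart, also with no protein-coding gene between. In unstressed N2 they stood at 192 and 17.5 FPKM, with log2 ratios of −5.52 and −4.26. Neighbours thus differed in level and in ratio in both places.

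Of the 34 listed genes 9 have another annotated collagen gene as next protein-coding neighbour, or 26.5%, and of the 142 protein-coding ones not listed 39, or 27.5%. The neighbour of col-12 is col-13 and that of col-145 is col-10, neither of them listed. The listed genes have short coding lengths, 834 to 1374 bases with a median of 895.5, and the others 462 to 2844 bases with a median of 921. Both sets have a median of 2 exons, and the longest coding length among the listed genes is that of rol-1.

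Few other genes of the cuticle pathway were listed, and lists of this size would hold few at the share of all genes listed. None of 18 genes of collagen modification and processing, such as dpy-18 (a prolyl hydroxylase subunit) and bli-3 (a dual oxidase that cross-links the cuticle), was listed in any of the 4 tables. None of 15 regulators, among them blmp-1, nhr-23, elt-3 and skn-1, was listed either. Of 96 other cuticle and molting genes 1 was lower in VZ1 without stress, the astacin metalloprotease gene nas-27 at 21.2 and 1.72 FPKM. Under stress 2 were lower, the hedgehog-related gene wrt-6 at 121 and 26.8 FPKM and nas-21, listed at 0.663 FPKM in N2 and at 0 in VZ1. These are 1.04% and 2.08% of the list, where 0.416% and 0.488% of all genes tested were listed as lower, so each share rests on 1 or 2 genes. None of these lists had a gene in either stress table. A gene not listed has no value here, so its level is unknown.

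Among genes that are not collagens, those most like the 16 in their pair of strain ratios were sought by the sum of the distances from the medians of the 16. They were D1086.11, Y45F10C.4, R03G8.6, F55B11.2 and F54F7.3, of 15 candidates. The nearest, D1086.11, stood at 73.8, 3.88, 48.0 and 2.30 FPKM in unstressed N2, unstressed VZ1, stressed N2 and stressed VZ1, with log2 ratios of −4.25 and −4.38. The loci of D1086.11 and F55B11.2 have other bounds in the unstressed than in the stressed strain table, so their levels with and without stress are less comparable. Each of the 16 collagen genes has the same locus in both.

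A few marker genes of other tissues were also listed, and the share of all genes tested that were listed as lower was 0.416% between the unstressed strains, 0.488% between the stressed ones and 0.25% for stress in N2. Of 6 yolk protein genes, made by the adult intestine, 4 were lower in unstressed VZ1, with a summed level of 572 FPKM in N2 and 19.0 in VZ1. Under stress 1 was lower in VZ1, vit-6 at 52.3 and 12.6 FPKM, and 5 fell with stress in N2, from 580.5 to 85.9 FPKM summed. Of 11 oocyte and eggshell genes 2, puf-5 and cpg-2, were lower in unstressed VZ1, with 162 and 37.2 FPKM summed. Of 35 major sperm protein genes only msp-152 was listed, at 212 FPKM in stressed N2 and 23.6 in stressed VZ1, and a single gene says nothing of the others, which have no value. None of the 4 muscle, 3 neuron and 2 basement membrane collagen genes looked for was listed in any table. No listed gene of these lists was at 0 in a library, and their part in the collagen result was not tested.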

How the data were processed

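Each of 4 tables pairs 2 of the 4 RNA-seq libraries, and each group has 1 library. The submitters' processing notes name the build ce10 and the tools Bowtie2, TopHat and Cufflinks, whose versions, like strandedness and annotation, are not stated there. The authors' FPKM values were made separately for each pair, per the file headers. Each entry also has a deposited p-value and q-value (the largest q is 0.0492), so the tables hold called genes only. How many genes were tested follows from q times rank over p, a step tested on simulated data. For N2, libraries in 2 tables had median FPKM ratios of 0.979 (7 loci, unstressed) and 1.01 (4 loci, stressed). For VZ1 no locus allowed this.

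Collagen genes were matched by name, and all 34 names were found in RefSeq (WBcel235). WBcel235 gave names, neighbours, coding lengths and exon numbers only. Positions are those of the tables, in ce10. Folds are log2 ratios of FPKM with no pseudocount, computed with Python 3.11.15 and pandas 2.3.3. A gene is called lower, higher, risen or fallen where the authors list it, and their test compares 2 libraries. Other stress folds join the strain tables. Reads of near-identical collagen genes may be split between copies. Genes named in full were those in both strain tables, those in a stress table, the 5 lowest ratios and each positive ratio per strain table, and each dpy-, rol- and bli- member; the rest were added as neighbours or to complete the classes. Members, lists and rules were chosen with earlier results of these data known.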

Additional observations from a re-analysis of the deposited data

Results flagged for a closer look

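The gene col-3 was picked out because its stress folds have opposite signs in the strains. Its log2 stress fold, taken across the strain tables, was −5.18 in N2 (25.5 to 0.704 FPKM) and 1.99 in VZ1 (2.97 to 11.8 FPKM). With a pseudocount of 1 FPKM these were −3.96 and 1.69. Each value rests on 1 library per group, and the difference was not tested. The authors' N2 stress table lists the fall in N2, at log2 −5.22, and their VZ1 stress table does not list the gene. The gene had the lowest level of the 16 in unstressed N2. No group has the 4 libraries that a test for a library standing apart would need.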

How the results depend on the processing

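The counts of listed collagen genes (24, 26, 4 and 0 in the unstressed strain, stressed strain, N2 stress and VZ1 stress tables) stayed within 1.5 times under each alternative. They were 21, 24, 3 and 0 at a q of at most 0.02. Leaving out loci over 2 times the annotated gene length, an alternative chosen after seeing the data, gave 21, 21, 3 and 0. The median strain ratio without stress (log2 −3.88) was −3.46 with a pseudocount of 1, −3.48 without members under 1 FPKM, −4.06 without loci of several genes, −4.12 over the genes in both strain tables and −3.70 without wide loci. The one with stress (−2.86) was −2.85, unchanged, −2.87, −4.14 and −2.99 in that order. The median stress fold in N2 (−0.94) was −0.90 without members under 1 FPKM, −0.90 without wide loci and −0.99 rescaled to the stress table, and that in VZ1 (−1.09) was −0.995 with a pseudocount of 1 and −1.05 without members under 1 FPKM or without wide loci. The median difference of the folds between strains (−0.016) was 0.025 with a pseudocount of 1, which reverses its sign near 0, and −0.090 without col-3, both chosen after seeing the data; the cause was not tested. A pseudocount of 1 changed each of the 50 strain ratios by 0.0020 to 1.24 (log2), most for col-137, and reversed none. The fold of col-20, col-3 and col-178 in N2 was −3.04, −5.18 and −2.11 across the strain tables. Near-identical proteins were not grouped, as no protein sequences were used here. No paired analysis was possible because each group has 1 library and the labels give no replicate numbers. No replicate could be left out, and with unknown depth the precision of low FPKM values cannot be given.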
